A study of Mus musculus with 6 samples.

Results

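The genes described here encode the ADAM, ADAMTS and matrix metalloproteinase (MMP) proteases and the tissue inhibitors of metalloproteinases (TIMPs). They were chosen by name, as the protein-coding genes with a symbol of *Adam*, *Adamts*, *Mmp* or *Timp* and a number in GENCODE M21. The gene table held 70 of the 78 such symbols, out of 26579 genes in all, with 27 *Adam*, 19 *Adamts*, 20 *Mmp* and 4 *Timp* genes. The only measured value in the choice was a row in the table, which every gene with at least 1 count in the 6 libraries had. Of the 70 genes, 5 stood just inside that limit with a single count (*Adam1b*, *Adam24*, *Adam26a*, *Adam34* and *Adam6b*), as did 2531 rows of the whole table. Just outside it were 8 symbols without a row (*Adam20*, *Adam25*, *Adam26b*, *Adam29*, *Adam39*, *Adam6a*, *Mmp21* and *Mmp7*).

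The dorsal neck skin of 3 YAP2-5SA-∆C transgenic mice (TG) and of 3 wildtype mice (WT) was profiled by RNA-Seq, all of them female littermates at postnatal day 33. The transgene encodes a mutant form of the transcriptional co-activator YAP and is expressed in basal keratinocytes of the epidermis, whereas the biopsies held the whole skin with dermis, hair follicles, vessels and immune cells. The question of the comparison was which genes differ in level between skin with and without this epidermal YAP activity. In such bulk samples, fewer cells of a type and less RNA per cell cannot be told apart. Total counts ranged from 11225705 to 19505036 per library, of which 19250 to 34971 (0.160% to 0.203%) fell on the 70 genes. The level of *Yap1* was 131 ± 9.47 CPM (counts scaled to the library size) in wildtype and 136 ± 7.32 CPM in TG skin (SD, n = 3 each), and the sources used here do not say if transgene reads count towards this gene.

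MMPs are zinc-dependent enzymes that cleave collagens, laminins, elastin and other proteins of the extracellular matrix, and most are secreted as inactive precursors. ADAMs are mostly membrane-anchored and release the outer parts of growth factors, cytokines, receptors and adhesion proteins, although many members are sperm proteins without enzyme activity. ADAMTS proteins are secreted and process procollagens or cut large proteoglycans such as versican and aggrecan. TIMPs bind and block the active enzymes. In skin these genes are known for their part in wound repair, hair follicle remodelling and inflammation, and each step is shared between keratinocytes, fibroblasts and leukocytes.

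Expression was compared between genotypes over the 15102 genes that reached 1 CPM in 3 or more libraries. Of the 70 genes, 49 passed this filter, and 46 of these had at least 1 CPM in all 6 libraries. One tested member, *Mmp13*, had no wildtype library at 1 CPM and passed only through the TG libraries. In edgeR's quasi-likelihood test, adjusted by Benjamini-Hochberg over all tested genes (called the quasi-likelihood FDR below), 5 members rose and 0 fell in TG skin at a threshold of 0.05, against 1.44% of all tested genes called higher and 0.464% called lower. The 5 were *Timp1*, *Mmp9*, *Mmp11*, *Mmp13* and *Adam8*. Of the members with a lower level, 3 had an unadjusted p-value under 0.05 in the same test, as did 18 with a higher level, where 13.3% of all tested genes were higher and 13.0% lower at this p-value. The likelihood-ratio test of edgeR, which the study used together with voom, called 11 members higher and 2 lower, where it called 5.52% of all tested genes higher and 4.87% lower, and its calls included all 5 of the quasi-likelihood test. Voom called 5 higher and 0 lower (background 1.23% and 0.417%), and DESeq2 called 12 higher and 3 lower (background 6.35% and 4.18%).

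The log2 fold change (TG minus wildtype) was above 0 for 37 of the 49 tested members and below 0 for 12. This is 75.5% above 0, beside 47.6% of all tested genes. Every TG library was above every wildtype library for 17 tested members and below for 4, whereas this held for 15.5% and 18.2% of all tested genes. The median log2 fold change was -0.12 over the 4 tested *Timp* genes, 0.49 over 14 *Mmp* genes, 0.15 over 18 *Adamts* genes and 0.14 over 13 *Adam* genes, beside -0.01 over all tested genes. Single libraries moved these medians: the *Timp* median was -0.07 without wildtype replicate 3 or TG replicate 1, the *Mmp* median 0.32 without TG replicate 2, the *Adamts* median 0.07 without wildtype replicate 2 and 0.09 without TG replicate 1, and the *Adam* median 0.07 without wildtype replicate 2 and 0.22 without wildtype replicate 3. These counts describe the members that passed the filter and carry no test of the list.

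**Figure D1:**
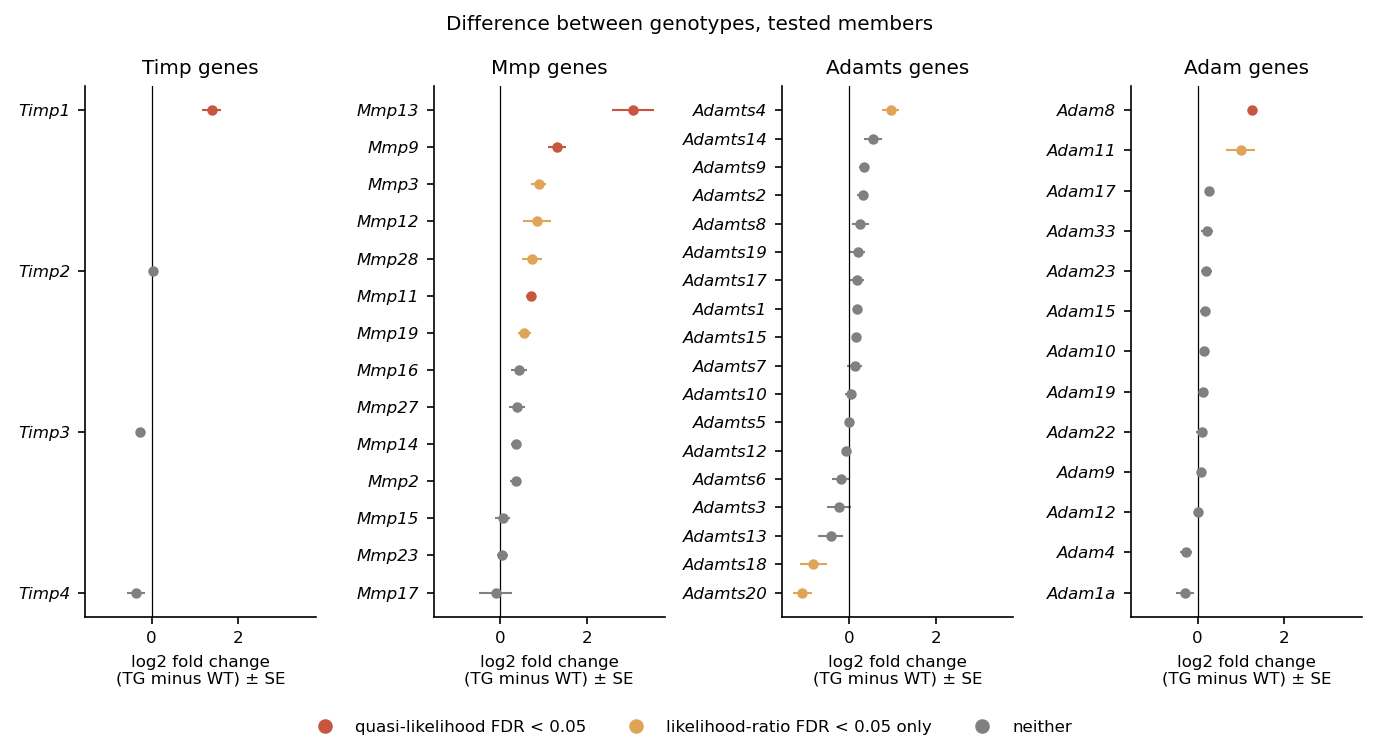
Log2 fold change (TG minus wildtype, WT) of the 49 tested members, 1 panel per family, with bars of 1 standard error (SE) of the quasi-likelihood fit. The values run from -1.08 (*Adamts20*) to 3.06 (*Mmp13*), and the 5 genes with a quasi-likelihood FDR below 0.05 (dark red) lie in the *Timp*, *Mmp* and *Adam* panels.

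Among the inhibitors, *Timp1* rose in TG skin, and the abundant *Timp2* and *Timp3* did not pass the test. *Timp1* (ENSMUSG00000001131, chromosome X of GRCm38 from 20870166 to 20874735) encodes a secreted inhibitor of most MMPs that is known to be induced in wounds and inflamed tissue. Its level was 4.56, 3.98 and 5.80 CPM in wildtype replicates 1, 2 and 3 and 13.7, 9.06 and 14.4 CPM in the TG replicates. All 3 transgenic libraries lay above all wildtype libraries, with replicate 2 the lowest of the transgenic ones. The log2 fold change was 1.38 (SE 0.22) with a quasi-likelihood FDR of 0.0413. The call rested on all libraries but 1, as the FDR was between 0.0696 and 0.186 without wildtype replicate 1, 2 or 3 or TG replicate 1 or 3, and 0.00860 without TG replicate 2.

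*Timp3*, which encodes a matrix-bound inhibitor that also blocks ADAM17 and several ADAMTS enzymes, had 253, 249 and 261 CPM in wildtype and 217, 211 and 209 CPM in TG skin. The groups did not overlap, and the spread within each was small. Its log2 fold change of -0.26 (SE 0.05) had a quasi-likelihood FDR of 0.0535, a likelihood-ratio FDR of 0.239 and an adjusted p-value of 0.00471 in DESeq2. Exons of *Syn3* on the opposite strand overlap 21.3% of the *Timp3* exon bases, and the strand setting of the counting is not stated. *Timp2*, which takes part in the activation of MMP2 besides inhibiting it, ranged from 169 to 191 CPM in wildtype and from 168 to 193 CPM in TG skin, with a log2 fold change of 0.02 (SE 0.08). *Timp4* was low throughout, at 1.84 to 3.51 CPM, with a log2 fold change of -0.36 (SE 0.21) and an FDR of 0.320, and of -0.19 without TG replicate 1 and -0.23 without wildtype replicate 2.

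Levels of different genes were compared as CPM per kilobase of exon. In every wildtype and transgenic library of the plot of summed levels, *Timp2* and *Timp3* made up most of the *Timp* sum, at 92.1% to 93.6% in wildtype and 80.6% to 87.6% in TG skin. *Timp1* took 5.66% to 7.43% of that sum in wildtype and 11.9% to 18.9% in TG skin, so the ranges of the share did not overlap. The *Timp* sum itself overlapped between genotypes, at 82.6 ± 4.67 and 86.6 ± 1.57 CPM per kilobase (SD, n = 3 each). By mean level per kilobase the order was *Timp2*, *Timp3*, *Timp1* and *Timp4*, and the library values of neighbours in this order did not overlap.

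**Figure D2:**
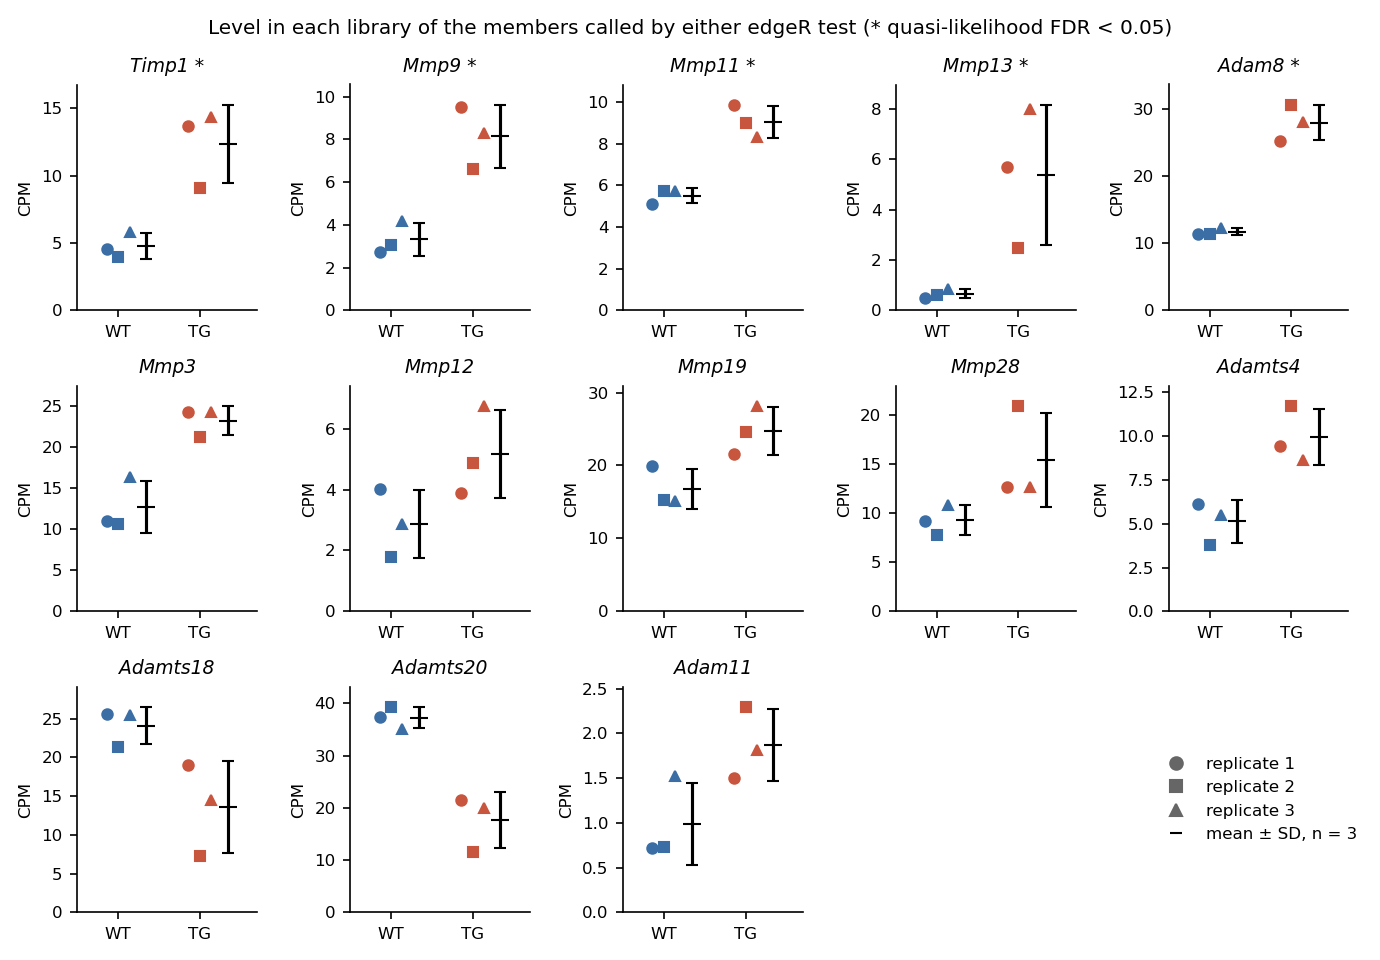
CPM in each library of the 13 members past an FDR of 0.05 in either edgeR test (the 5 that passed by quasi-likelihood are marked with *), with the mean ± SD of 3 libraries per genotype on axes that start at 0. For the 5 marked genes all 3 TG libraries lie above all wildtype (WT) libraries, whereas the groups overlap for *Mmp12* and *Adam11*.

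Of the 14 tested MMP genes, 3 rose by quasi-likelihood and 7 by likelihood-ratio, *Mmp13* among both, which passed the count filter only through the TG libraries. The background was 1.44% and 5.52% of all tested genes. Of the 14, 13 had a log2 fold change above 0 (47.6% of all tested genes) and 8 had non-overlapping groups with TG skin above (15.5%). The summed level of the 20 *Mmp* genes was 106, 87.9 and 108 CPM per kilobase in wildtype and 134, 149 and 130 CPM per kilobase in TG skin. The groups did not overlap, and the mean was 101 ± 11.1 in wildtype and 138 ± 10.3 in TG skin (SD, n = 3 each).

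*Mmp2*, the gelatinase made mainly by fibroblasts, alone took 56.0% to 58.0% of the *Mmp* sum in wildtype and 51.2% to 56.5% in TG skin. Its level was 208, 166 and 207 CPM in wildtype and 235, 285 and 224 CPM in TG skin, without overlap. A log2 fold change of 0.36 (SE 0.12) had a quasi-likelihood FDR of 0.131. *Mmp14*, the membrane-type enzyme that activates the MMP2 precursor, stood at 91.9, 71.9 and 87.1 CPM in wildtype and 108, 115 and 98.4 CPM in TG skin. Its log2 fold change was also 0.36 (SE 0.11), with an FDR of 0.0955, so neither of these abundant genes passed the test, although DESeq2 gave both an adjusted p-value below the threshold (0.0434 for *Mmp2* and 0.0248 for *Mmp14*). The likelihood-ratio FDR was 0.178 and 0.149. In the fibroblast marker list 4 of 6 genes were higher in every TG library, and its summed level was 4874 to 7184 CPM in wildtype and 6187 to 8478 CPM in TG skin, with none of its markers at 0. The part of these cells in the *Mmp2* and *Mmp14* levels was not tested.

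The other gelatinase, *Mmp9* (ENSMUSG00000017737, chromosome 2 from 164940780 to 164955850), is known in neutrophils, macrophages and migrating keratinocytes. It rose from 2.75, 3.04 and 4.19 CPM in wildtype to 9.51, 6.59 and 8.30 CPM in TG skin. Its groups were apart, and TG replicate 2 was the lowest transgenic library. The log2 fold change was 1.31 (SE 0.21) with a quasi-likelihood FDR of 0.0413, which became 0.0688 to 0.186 without wildtype replicate 1, 2 or 3 or TG replicate 1 or 3. Without TG replicate 2 it was 0.0151.

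*Mmp11*, or stromelysin 3 (ENSMUSG00000000901, chromosome 10 from 75923222 to 75936496), is known as an enzyme of stromal cells next to remodelling epithelium. Its level was 5.11, 5.70 and 5.71 CPM in wildtype and 9.84, 9.00 and 8.30 CPM in TG skin. Both groups were narrow and did not overlap. Its log2 fold change was 0.72 (SE 0.11) with a quasi-likelihood FDR of 0.0419, and 0.0696 to 0.178 in the fits without wildtype replicate 1, 2 or 3 or TG replicate 1 or 3, against 0.0330 without TG replicate 2. It shares 5.58% of its exon bases with *Chchd10* on the other strand.

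*Mmp13*, or collagenase 3 (ENSMUSG00000050578, chromosome 9 from 7272514 to 7283331), cleaves fibrillar collagen and is the main interstitial collagenase of rodents. It had 0.495, 0.628 and 0.856 CPM in wildtype (9, 12 and 9 counts) and 5.67, 2.47 and 7.99 CPM in TG skin (102, 42 and 128 counts). The lowest transgenic library, replicate 2, was still above the highest wildtype library. This log2 fold change was 3.06 (SE 0.48), the largest of the tested members, with a quasi-likelihood FDR of 0.0413. The FDR was 0.066 in voom and 0.0743, 0.186 and 0.141 without wildtype replicate 1, 2 and 3. Without any one TG library the gene no longer passed the filter, so it was not tested there.

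Other MMP genes passed the likelihood-ratio test but not the quasi-likelihood test, and of these *Mmp3*, *Mmp19* and *Mmp28* also passed DESeq2. *Mmp3* passed voom as well (FDR 0.0480), whose 5 calls held it in place of *Mmp13*. *Mmp3* (stromelysin 1) had 11.05, 10.6 and 16.4 CPM in wildtype and 24.2, 21.2 and 24.2 CPM in TG skin. These groups did not overlap, and the log2 fold change of 0.88 (SE 0.17) came just short of the threshold with a quasi-likelihood FDR of 0.0528, which was 0.0335 without TG replicate 2. *Mmp19*, a secreted MMP of the basal epidermis and of macrophages, had 19.9, 15.3 and 15.1 CPM in wildtype and 21.5, 24.5 and 28.1 CPM in TG skin (log2 fold change 0.56, SE 0.14, FDR 0.0751). *Mmp28* (epilysin), an MMP of keratinocytes, had 9.23, 7.75 and 10.8 CPM in wildtype and 12.7, 20.9 and 12.6 CPM in TG skin, where replicate 2 stood highest (log2 fold change 0.74, SE 0.23, FDR 0.106, and 0.47 without that library). *Mmp12*, the metalloelastase of macrophages, overlapped between genotypes, at 4.01, 1.78 and 2.85 CPM against 3.89, 4.88 and 6.74 CPM (log2 fold change 0.84, SE 0.33, FDR 0.161). Of the exon bases of *Mmp19*, 22.3% overlap *Tmem198b* on the opposite strand.

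**Figure D3:**
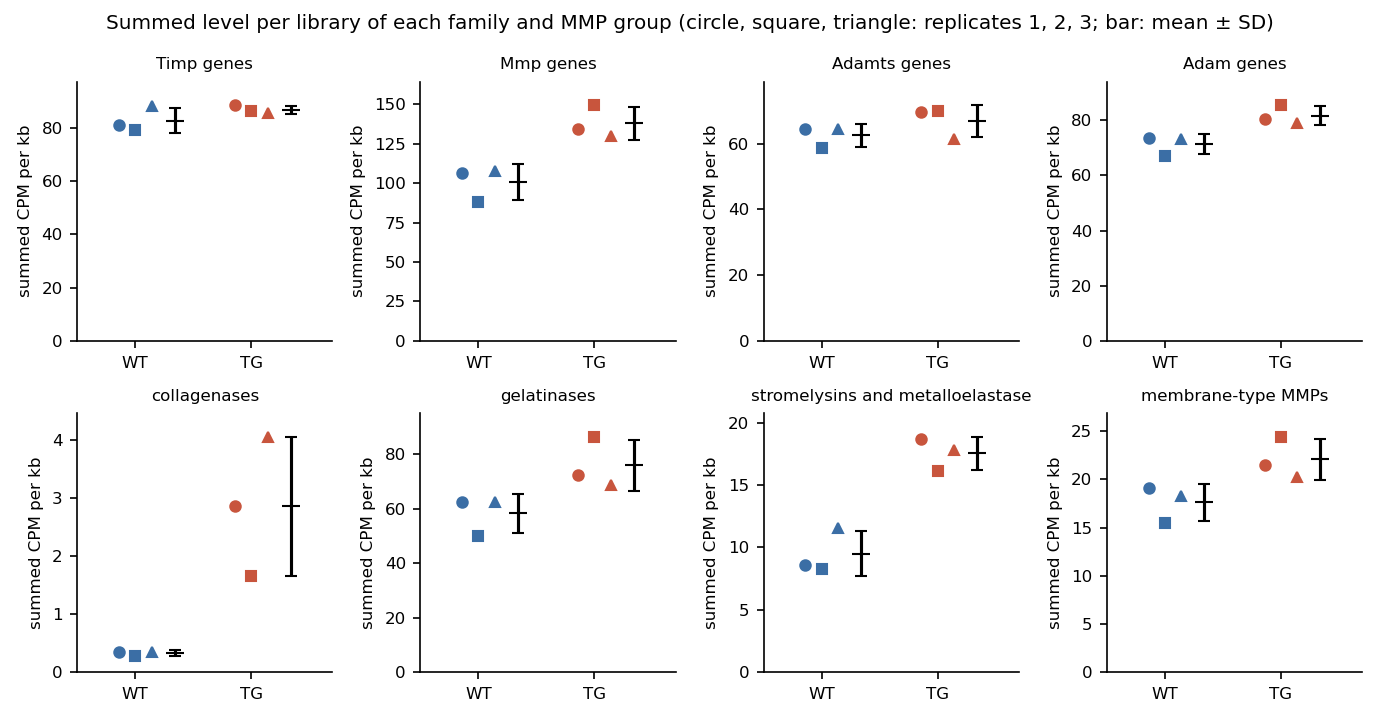
Summed CPM per kilobase of exon in each library for the 4 families (upper row) and for 4 groups of MMPs (lower row), with the mean ± SD of 3 libraries per genotype on axes that start at 0. The *Mmp* sum is 101 ± 11.1 in wildtype (WT) and 138 ± 10.3 in TG skin, the collagenase sum 0.332 ± 0.0469 and 2.86 ± 1.20, and the *Timp* sums overlap.

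By group, the collagenases were the scarcest MMPs and differed by the largest factor. Their sum was 0.359, 0.278 and 0.360 CPM per kilobase in wildtype and 2.87, 1.66 and 4.05 CPM per kilobase in TG skin. The stromelysins and metalloelastase summed to 9.50 ± 1.82 and 17.5 ± 1.34 CPM per kilobase (SD, n = 3 each), also without overlap. The membrane-type MMPs summed to 17.6 ± 1.89 and 22.0 ± 2.14 CPM per kilobase (SD, n = 3 each), and 0 of their 4 tested genes passed either edgeR test. By mean level per kilobase over all 6 libraries the most abundant MMPs were *Mmp2*, *Mmp14*, *Mmp3* and *Mmp19*, although in wildtype *Mmp23* (4.97 ± 0.321) was not below *Mmp19* (4.75 ± 0.764, SD, n = 3). With the genotypes pooled, the library values of *Mmp3* and *Mmp19* overlapped, as did those of *Mmp14* and *Mmp3*. Within every single library *Mmp14* stood above *Mmp3*, and *Mmp3* above *Mmp19*.

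Of the 10 *Mmp* symbols in the cluster on chromosome 9, which runs over 427 kilobases from 7272514 to 7699585, 8 were members with a row. This cluster was singled out after its values were seen. Each TG library was above each wildtype library for 5 of the 8 (*Mmp13*, *Mmp1b*, *Mmp3*, *Mmp10* and *Mmp8*), the groups overlapped for *Mmp12* and *Mmp27*, and *Mmp20* was below. Over all tested genes 15.5% were above and 18.2% below in this way. That share does not cover genes under the count filter, such as *Mmp1b*, *Mmp10*, *Mmp8* and *Mmp20*. *Mmp1b*, a rodent relative of interstitial collagenase, had 1, 0 and 0 counts in wildtype and 14, 11 and 14 counts in TG skin. Scaled to library size this was a ratio of 36.6 with a 95% exact interval of 6.19 to 1481, which covers counting error only. *Mmp10* (stromelysin 2), known at the migrating edge of wounded epidermis, had 3, 3 and 1 counts against 36, 12 and 13, a ratio of 8.17 (interval 3.73 to 21.2). *Mmp8*, the neutrophil collagenase, had 6, 2 and 1 counts against 9, 12 and 18, a ratio of 4.06 (interval 1.94 to 9.54).

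These genes were too low for the count filter, and their values come from few reads. In the quasi-likelihood fit without the filter, over all 26579 genes, *Mmp1b* had an FDR of 0.0249, *Mmp10* of 0.0427 and *Mmp8* of 0.0915. *Mmp20*, the enamel protease enamelysin, went the other way with 7, 16 and 6 counts in wildtype and 6, 0 and 3 counts in TG skin, where its CPM did not overlap (ratio 0.291, interval 0.121 to 0.631), and its FDR without the filter was 0.232. *Mmp27* was at 5.13 to 6.43 CPM in wildtype and 5.87 to 8.94 CPM in TG skin. *Mmp1b* and *Mmp12* lie on opposite strands and share 157 exon bases. The strand setting of the counting is not stated, so how reads in these bases were handled is not known. *Mmp1a* is annotated as a polymorphic pseudogene, was not a member, and had 1 count in wildtype and 4 in TG skin.

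**Figure D4:**
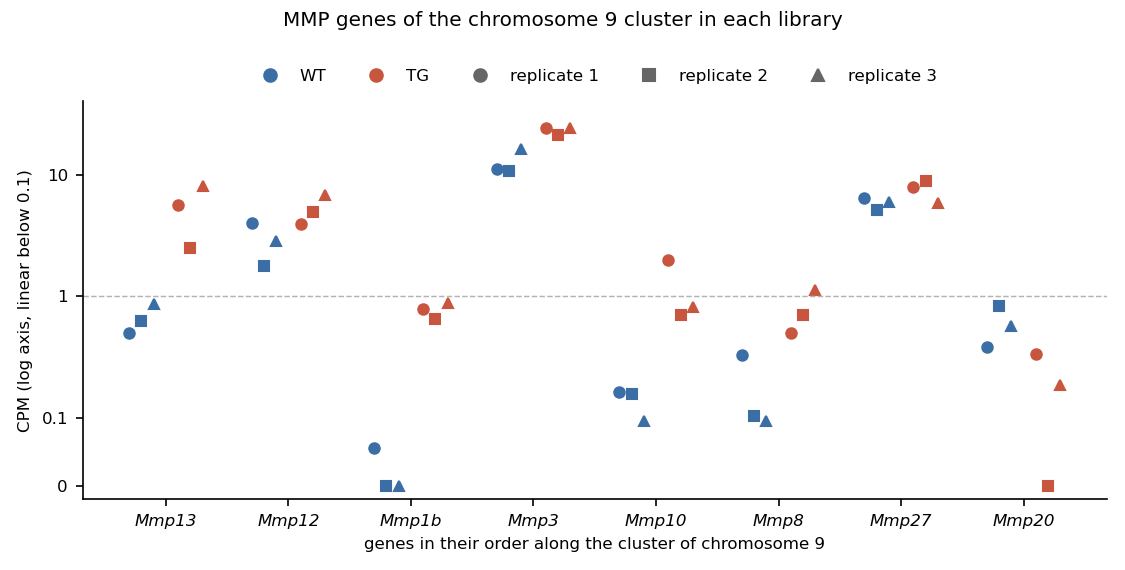
CPM in each library of the 8 *Mmp* genes of the chromosome 9 cluster, in genome order, on a log axis that is linear below 0.1 CPM, with a dashed line at 1 CPM. The TG libraries lie above all wildtype (WT) libraries for *Mmp13*, *Mmp1b*, *Mmp3*, *Mmp10* and *Mmp8*, and *Mmp1b* is at 0 in 2 wildtype libraries.

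Several genes of this cluster are textbook targets of AP-1, the Fos and Jun transcription factor, so the start sites were searched for its site. RefSeq promoters on GRCm38.p6, taken as 250 bases before to 50 bases after each start site, were at hand for 41 of the 70 members, all 8 of the cluster included. The site was read as TGACTCA or, on the other strand, TGAGTCA. It occurred in 7 of the 41 members (17.1%) and in 5.95% of the 27025 genes with a promoter. In the cluster 5 of 8 genes held it. The cluster was singled out after its values were seen, so site and direction of these genes carry no test of each other. The windows of the 5 genes are shown, each read along the strand of the gene with the site in capitals:
*Mmp13* (chr9:7272469-7272495, + strand, first base of the site at -35): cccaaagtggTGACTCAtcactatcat
*Mmp12* (chr9:7347320-7347346, + strand, at -44): acatcaacagTGAGTCAgatagaggat
*Mmp1b* (chr9:7388103-7388129, - strand, at -93): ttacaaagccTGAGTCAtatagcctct
*Mmp3* (chr9:7445766-7445792, + strand, at -46): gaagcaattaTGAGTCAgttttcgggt
*Mmp10* (chr9:7502269-7502295, + strand, at -63): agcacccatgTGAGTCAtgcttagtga

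No match was found in the windows of *Mmp8*, *Mmp27* and *Mmp20*. The letters of the TEAD site, through which YAP is known to act (GGAATG, or CATTCC on the other strand), occurred in 4 of the 41 members (9.76%), beside 16.6% of all genes, and in 0 of the 8 cluster genes. The 4 were *Adam19*, *Adam1a*, *Adamts13* and *Timp1*, of which *Timp1* alone was called by an edgeR test. The AP-1 letters outside the cluster were in *Adam19*, which neither edgeR test called, and in *Adam1b*, which had a single count. A match of letters is a description of the sequence and no evidence of binding. The windows cover start sites only, whereas the paper cites work in which such motifs tended to lie in enhancers.

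Of the 19 *Adamts* genes 18 were tested, and 0 passed the quasi-likelihood test in either direction, while the likelihood-ratio test called *Adamts4* higher and *Adamts18* and *Adamts20* lower. These 3 genes had the largest log2 fold changes of the family. Over all tested genes the quasi-likelihood test called 1.44% higher and 0.464% lower, and the likelihood-ratio test 5.52% and 4.87%. *Adamts4*, an aggrecan- and versican-cleaving enzyme known to be induced by inflammatory cytokines, had 6.10, 3.77 and 5.52 CPM in wildtype and 9.46, 11.7 and 8.61 CPM in TG skin. The groups did not overlap, and the log2 fold change of 0.96 (SE 0.21) had a quasi-likelihood FDR of 0.0595.

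*Adamts20*, the gene mutated in belted mice and needed for the spread of pigment cell precursors through the skin, had 37.4, 39.2 and 35.1 CPM in wildtype and 21.5, 11.5 and 19.9 CPM in TG skin. All transgenic libraries were lower, with replicate 2 the lowest. Its log2 fold change was -1.08 (SE 0.22) with a quasi-likelihood FDR of 0.0542, and -0.83 with an FDR of 0.00860 without TG replicate 2. *Adamts18*, a secreted protease of developing organs, had 25.6, 21.4 and 25.4 CPM in wildtype and 19.0, 7.30 and 14.5 CPM in TG skin. It was likewise lowest in replicate 2, and its log2 fold change of -0.82 (SE 0.31) had an FDR of 0.149, and it was -0.51 without TG replicate 2.

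The markers of hair and pigment cells were set beside these genes. All 9 hair shaft and inner root sheath markers with a row were lower in every TG library, with a summed level of 12998 to 16119 CPM in wildtype and 1440 to 8765 CPM in TG skin, lowest in replicate 2. All 5 melanocyte markers were lower as well, with a sum of 407.6 to 478 CPM in wildtype and 151 to 261 CPM in TG skin, again lowest in replicate 2, and none of them was at 0. The part of these cells in the *Adamts20* and *Adamts18* levels was not tested.

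The 3 *Adamts* genes with the highest level per kilobase did not pass the test, and the groups did not overlap for *Adamts1* and *Adamts2*. *Adamts1*, a proteoglycanase and the highest of the family per kilobase, was at 76.2 to 81.4 CPM in wildtype and 82.8 to 98.7 CPM in TG skin (log2 fold change 0.19, SE 0.08, FDR 0.189, and a log2 fold change of 0.13 without TG replicate 2). *Adamts2*, which removes the amino-terminal propeptide of fibrillar procollagens, was at 72.2 to 90.7 CPM and 91.1 to 118 CPM (log2 fold change 0.32, SE 0.12, FDR 0.156). *Adamts5*, the other main aggrecanase, had a log2 fold change close to 0 (SE 0.08, FDR 0.985) and a mean of 66.1 ± 2.30 CPM in wildtype and 65.9 ± 6.81 CPM in TG skin (SD, n = 3 each). By role, 0 of 7 proteoglycanases, 0 of 3 procollagen N-proteinases and 0 of 8 other tested *Adamts* genes passed the quasi-likelihood test. That test called 1.44% of all tested genes higher and 0.464% lower. The *Adamts* sums overlapped, at 62.5 ± 3.44 and 66.9 ± 4.81 CPM per kilobase.

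*Adam8* was the one ADAM past the quasi-likelihood threshold and had the lowest FDR of all members. It encodes a catalytically active membrane protease known in neutrophils, macrophages and other leukocytes. The gene (ENSMUSG00000025473, chromosome 7 from 139978932 to 139992562) was counted at 208, 218 and 130 reads in wildtype and 455, 520 and 450 reads in TG skin, which is 11.4, 11.4 and 12.4 CPM against 25.3, 30.6 and 28.1 CPM. The spread within each genotype was small beside the gap, and the log2 fold change was 1.25 (SE 0.09) with a quasi-likelihood FDR of 0.0101. The FDR stayed under the threshold without wildtype replicate 1 (0.0299), TG replicate 1 (0.0369) or TG replicate 2 (0.00676), and was 0.1003, 0.0513 and 0.0816 without wildtype replicate 2, wildtype replicate 3 and TG replicate 3, while the log2 fold change remained at 1.20 to 1.34.

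The main sheddases, in contrast, did not pass the quasi-likelihood test. *Adam17*, which releases TNF and several ligands of the EGF receptor, had 93.6, 86.9 and 88.4 CPM in wildtype and 103, 118 and 102 CPM in TG skin. Its groups did not overlap, and the log2 fold change of 0.26 (SE 0.07) had a quasi-likelihood FDR of 0.0870, a likelihood-ratio FDR of 0.299 and an adjusted p-value of 0.0433 in DESeq2. *Adam10*, which cleaves Notch receptors and cadherins, overlapped at 76.6 to 91.2 CPM and 89.2 to 98.3 CPM (log2 fold change 0.14, SE 0.08, FDR 0.321, and a log2 fold change of 0.07 without wildtype replicate 2). *Adam9* was at 68.0 to 72.4 CPM and 71.1 to 75.9 CPM (log2 fold change 0.08, SE 0.06, FDR 0.417, and a log2 fold change of 0.12 without TG replicate 2). Per kilobase *Adam10* and *Adam9* overlapped in their library values, and *Adam17* was below both in every library. *Adam17* reached into the range of *Adam10* only with the genotypes pooled. *Adam11*, a non-enzymatic member of the nervous system, was called higher by the likelihood-ratio test (FDR 0.0156), but its values of 0.715, 0.733 and 1.52 CPM in wildtype and 1.502, 2.29 and 1.81 CPM in TG skin overlapped, and its quasi-likelihood FDR was 0.128. The summed level of the *Adam* genes was 71.3 ± 3.69 CPM per kilobase in wildtype and 81.6 ± 3.46 in TG skin (SD, n = 3 per genotype), and the libraries of the 2 genotypes did not overlap.

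Of the 21 members under the filter 14 were *Adam* genes, 6 *Mmp* genes and 1 an *Adamts* gene. The highest value of an untested member in any library was 2.00 CPM (*Mmp10* in TG replicate 1), and 8 of the 70 members had at most 10 counts over all 6 libraries. Most of these *Adam* genes (such as *Adam2*, *Adam3*, *Adam5* and *Adam18*) are known from sperm and testis. Testis germ cell markers summed to at most 0.187 CPM in any library, which the choice of female skin fixed in advance. The groups overlapped for 17 of the 21, and the other 4 were the *Mmp1b*, *Mmp10*, *Mmp8* and *Mmp20* of the chromosome 9 cluster.

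**Figure D5:**
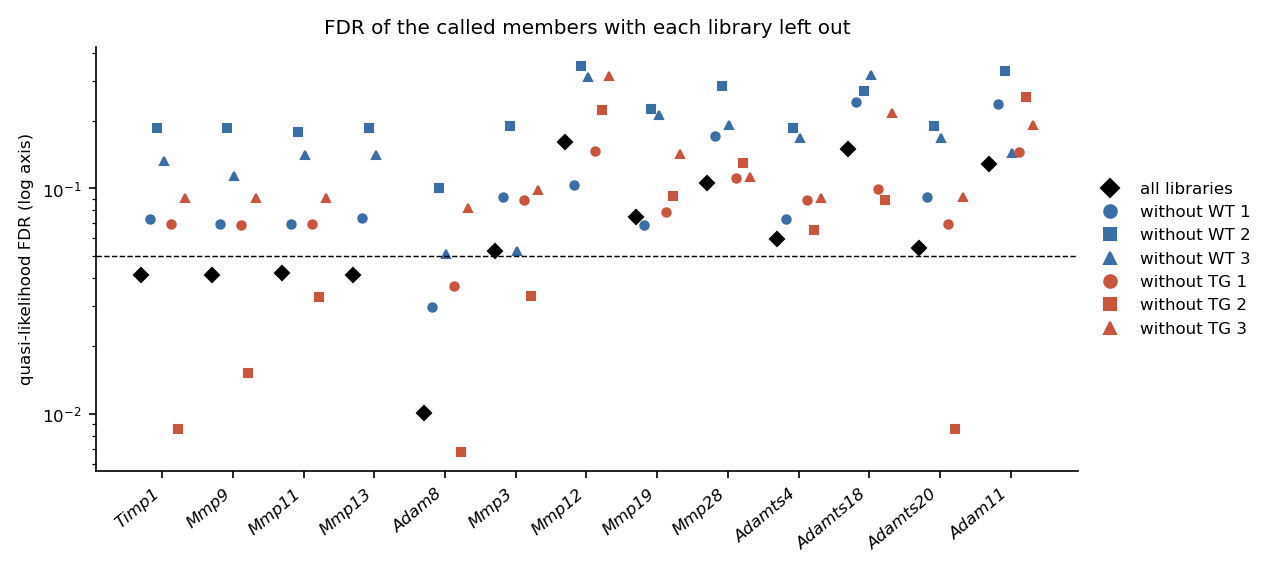
Quasi-likelihood FDR (log axis) of the 13 members called by either edgeR test, from all 6 libraries (black diamonds) and with each library left out in turn, with a dashed line at 0.05. *Adam8* lies below the line in 3 of the 6 fits, whereas *Timp1*, *Mmp9* and *Mmp11* do so only without TG replicate 2.

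How the calls depended on single mice is shown by the plot of FDR with each library left out. The quasi-likelihood test called 1 member higher without wildtype replicate 1 or TG replicate 1 (*Adam8* in both), 0 without wildtype replicate 2, wildtype replicate 3 or TG replicate 3, and 5 without TG replicate 2. Over all tested genes, these fits called 142 without wildtype replicate 1, 83 without TG replicate 1, 817 without TG replicate 2 and 0 in the other 3, so the fits without a member called none of the other genes either. In those 3 fits 10, 16 and 17 members were higher and 3, 2 and 3 lower at an unadjusted p-value under 0.05, as were 2726 of 14981, 2844 of 14999 and 3691 of 14925 genes in either direction. The 5 called without TG replicate 2 held *Mmp3* in place of *Mmp13*, which was not tested there.

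Leukocyte markers are given beside *Adam8*, *Mmp9*, *Mmp12* and *Mmp8*, which are known in these cells. All 8 macrophage markers were higher in every TG library, 2 of them past the quasi-likelihood threshold, and their summed level was 419 to 506 CPM in wildtype and 591 to 669.9 CPM in TG skin, with none at 0. The neutrophil list summed to 8.91 to 13.3 CPM in wildtype and 20.8 to 30.0 CPM in TG skin. This sum came mostly from *Cxcr2* (log2 fold change 1.05, SE 0.16, FDR 0.0401) and *Csf3r* (1.53, SE 0.31, FDR 0.0531), the 2 tested markers of the 8, whereas *Ly6g* had no row and *Mpo*, *Elane*, *Ngp*, *Camp* and *Retnlg* had group means of at most 0.563 CPM. Mast cell markers were higher in every TG library for 5 of 6 genes (sum 155 to 174 CPM and 198 to 249.6 CPM). The groups overlapped for all 3 tested T cell markers of 6, 0 of which passed either edgeR test, and the list summed to 7.90 to 9.45 CPM and 9.46 to 13.5 CPM with none at 0. Basal keratinocyte markers summed to 3538 to 4277 CPM in wildtype and 5824 to 7419 CPM in TG skin, with 4 of 6 higher in every library and none at 0. Of the 4 stress keratinocyte markers, *Krt6a*, *Krt6b* and *Krt16* were higher in every TG library, 2 of them past the quasi-likelihood threshold (*Krt6b* and *Krt16*), and *Krt17* was lower. Their sum overlapped, at 1194 to 1585 CPM in wildtype and 1222 to 2363 CPM in TG skin, and none of the 4 was at 0. TG replicate 2 was the lowest transgenic library of this sum, as for *Timp1*, *Mmp9* and *Mmp13*. The other called members differed, with *Mmp11* lowest in TG replicate 3 and *Adam8* in TG replicate 1. The part of any of these cells in the protease levels was not tested.

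The companion genes of the proteases were then examined by list. Of 25 tested activators, inhibitors and cofactors 0 passed the quasi-likelihood test in either direction, with 6 higher and 3 lower at an unadjusted p-value under 0.05 (13.3% and 13.0% of all tested genes) and a median log2 fold change of 0.05. *Furin*, the convertase that removes the prodomain of many ADAMs, ADAMTS proteins and MMP14, had 79.2, 72.4 and 82.9 CPM in wildtype and 86.0, 106 and 100.3 CPM in TG skin (log2 fold change 0.32, SE 0.09, FDR 0.0936). The convertase *Pcsk5* had a log2 fold change of 0.46 (SE 0.13, FDR 0.0896). *Tspan10*, a tetraspanin partner of ADAM10, had one of -1.27 (SE 0.36, FDR 0.0884). Of 10 tested ADAMTS-like and other metzincin genes 0 passed, with 1 higher and 1 lower at an unadjusted p-value under 0.05 and a median of 0.06.

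Among 25 tested genes for membrane proteins shed by ADAM10 or ADAM17, 1 rose and 1 fell by quasi-likelihood (background 1.44% and 0.464%), and 6 were called higher and 1 lower by likelihood-ratio (background 5.52% and 4.87%). At an unadjusted p-value under 0.05, 7 were higher and 4 lower (13.3% and 13.0% of all tested genes), and the median log2 fold change was 0.25. *Cxcl16*, a chemokine made as a membrane protein and released by ADAM10, rose from 19.6, 16.8 and 16.3 CPM in wildtype to 29.4, 43.1 and 39.3 CPM in TG skin. The groups were well apart, with a log2 fold change of 1.08 (SE 0.15) and a quasi-likelihood FDR of 0.0382. *Notch1* fell from 336, 323 and 319.5 CPM to 242, 228 and 254 CPM, with a log2 fold change of -0.44 (SE 0.06) and an FDR of 0.0398. The 4 genes next in FDR, short of the threshold, were the TNF receptor *Tnfrsf1a* (0.44, SE 0.09, FDR 0.0547), the EGF receptor ligand *Epgn* (1.51, SE 0.32, FDR 0.0584), the adhesion molecule *Icam1* (0.51, SE 0.11, FDR 0.0588) and the KIT ligand *Kitl* (-0.29, SE 0.09, FDR 0.1001), each given as its log2 fold change.

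Of 20 tested matrix substrates 0 passed the quasi-likelihood test, although 9 were higher and 1 was lower at an unadjusted p-value under 0.05, where 13.3% and 13.0% of all tested genes were. The median log2 fold change was 0.31. *Tnc*, for the wound matrix protein tenascin C, had 143, 126 and 143 CPM in wildtype and 259, 161 and 303 CPM in TG skin (log2 fold change 0.81, SE 0.21, FDR 0.0769). *Eln* (elastin) had a log2 fold change of 0.41 (SE 0.09, FDR 0.0596). *Lum*, a small proteoglycan of the dermis, had one of 0.29 (SE 0.09, FDR 0.0935).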

How the data were processed

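The 6 libraries were analysed from the raw gene counts that the authors deposited, 1 row per Ensembl identifier. The reads had been mapped reads to GRCm38 with TopHat2 (2.0.12 in the submitters' processing notes) and Bowtie2 2.1.0, and uniquely mapped reads had been counted with HTSeq-count, which drops reads shared by paralogs. The annotation release and strand setting are not given in the sources used here, and antisense or overlapping genes are therefore uncertain. The labels name a kit for total RNA, whereas the study's methods describe mRNA libraries.

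Symbols, positions and exon lengths came from GENCODE M21 on GRCm38, which lacks 558 of the identifiers. Genes that reached 1 CPM in 3 or more libraries were scaled with TMM and tested with glmQLFit and glmQLFTest of edgeR 4.0.16 (bias-adjusted form) in R 4.3.3, with genotype as the only term. The SE is the size of the log2 fold change divided by the square root of F. CPM values use TMM-scaled library sizes. The likelihood-ratio test, voom of limma 3.58.1, DESeq2 1.42.0, RLE and upper-quartile scaling, no filter, at least 10 counts in every sample, a block for the replicate number and the omission of each library were alternatives, and a trended dispersion was added after seeing the data. The scripts were tested on simulated data.

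The members, gene lists and tests were chosen with earlier results of these data known. Genes named are those called by either edgeR test, all *Timp* genes, the 3 highest per kilobase of each other family, *Mmp14*, *Adam10*, *Adam17*, and of each companion list the genes past the threshold and up to 4 others. The chromosome 9 cluster was added after its values were seen. A split of ADAMs by their zinc-binding motif, which needs protein sequences, was not applied. The labels do not say how many litters the mice came from.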

Additional observations from a re-analysis of the deposited data

How the results depend on the processing

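The count of 5 members called higher was 11 in the likelihood-ratio test, 12 in DESeq2, 9 without the count filter and 0 to 5 in the fits without 1 library. The count of 0 called lower was 2, 3 and 1 in the same 3 settings and 0 to 1 with a library left out, the 1 being *Adamts20* without YAP2-5SA-∆C replicate 2. Over all tested genes the 288 calls became 1568, 1590 and 497, and 0 to 817 with a library left out, where the fits without a call still had 2726 to 3691 genes at an unadjusted p-value under 0.05. Fewer libraries entered these fits, and the cause was otherwise not tested. Of the 24 members named by the rule, 22 kept their direction in every setting that tested them. The log2 fold change of *Adamts5*, close to 0, turned positive at 0.00935 in DESeq2, 0.00766 with RLE scaling, 0.0192 with upper-quartile scaling, 0.00991 without the filter and 0.000313 with at least 10 counts in every sample, and ran from -0.0715 to 0.0545 with a library left out. That of *Timp2* ran from -0.00994 to 0.0886. With the replicate number as a block, 0 members and 0 of all tested genes were called, with 12 members higher and 3 lower, and 2949 genes in either direction, at an unadjusted p-value under 0.05. The numbers do not pair the mice, since the correlations of same-numbered libraries were -0.33, -0.23 and -0.05. The values of most untested members were under 1 CPM and rest on few reads.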
